A study of Sparus aurata with 30 samples.

Results

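The genes described here are the amino acid and peptide transporter genes of the gilthead sea bream (Sparus aurata), taken as every gene whose symbol in the count files belongs to the solute carrier families slc1, slc3, slc6, slc7, slc15, slc36, slc38 or slc43. The symbol rule found 37 of the 25722 genes: 4 of slc1, 2 of slc3, 12 of slc6, 8 of slc7, 2 of slc15, 7 of slc38, 2 of slc43 and 0 of slc36. Transcripts were counted in the head kidney, the main blood-forming and immune organ of bony fish, the intestine and the liver. Fish ate either a control feed or a feed of which 30% was dried spent yeast from brewing (SDY), given in place of fish meal (10%) and of proteins from plants (31.4%). The study compared the feeds within each tissue, and each of the 6 tissue and diet groups had 5 libraries from randomly chosen fish. The labels give no strain, age, feeding time, treatment other than diet, or tank, for any group. P-values therefore measure the spread between these libraries, and effects of a shared tank cannot be told apart from diet.

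Amino acid transporters move their substrates by coupling to ions or by exchange. The light chains of slc7 reach the cell surface bound to a heavy chain of slc3: slc3a1 pairs with slc7a9 for cystine and dibasic amino acids, and slc3a2 pairs with slc7a5, slc7a7 and slc7a11. The slc1 family carries glutamate and small neutral amino acids, and the slc38 family carries glutamine and other neutral amino acids, with several members on the lysosome. Intestinal cells take up peptides and amino acids at the brush border and pass them to the blood, from which the liver draws them. The families also hold carriers of other substrates: in mammals slc6a2, slc6a3 and slc6a4 carry noradrenaline, dopamine and serotonin, slc6a8 carries creatine and slc43a3 carries purine nucleobases. The members' substrates are therefore wider than the name of the group.

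Of the 30 libraries 28 were used, with 9276705 to 20580440 counts each. Head kidney control replicate 1 held 926 counts, 2 of them on transporter genes, and was left out. Head kidney control replicate 3 was left out too, because its 7 hepatocyte markers summed to 20100 CPM (counts scaled to a common library total). They summed to 5.43 to 17.2 CPM in the head kidney libraries kept. CPM of replicate 3 use its plain total. CPM of the 28 libraries are scaled by TMM, which adjusts for a few very abundant genes filling a library. Head kidney thus had 3 control and 5 SDY libraries, and no head kidney result below uses the other controls unless stated. Hepatocyte markers summed to 45900 to 99000 CPM in liver and brush border markers to 1710 to 4550 CPM in intestine. The 9 markers listed for T and B cells summed to 944 to 1340 CPM in head kidney and 291 to 694 CPM in intestine. Of these, ptprc, which is not limited to lymphocytes, held 390 to 641 CPM in head kidney. Liver libraries also held 6300 to 35000 CPM of cpb1, a digestive enzyme gene of the exocrine pancreas. None of the 37 genes overlapped another gene of the files, but reads of near-identical paralogs could have been lost or misplaced. In bulk tissue, fewer cells of a type and less RNA per cell cannot be told apart.

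Some transporters were well above the other tissues in a single tissue: slc6a20 and slc3a1 in intestine, slc38a4, slc1a4, slc7a2 and slc6a2 in liver, and slc7a5 and slc1a5 in head kidney. The transporter genes took 0.151% to 0.227% of the counts in intestine libraries, 0.0728% to 0.0875% in head kidney and 0.0446% to 0.0934% in liver, so the intestinal range lay above the others. Levels of the libraries used are CPM scaled by TMM unless plain library totals are named. Summed over the members of a family among the 37 genes, slc6 averaged 696 ± 114 CPM in intestine (SD, n = 10), 295 ± 73.1 CPM in liver (n = 10) and 40.6 ± 17.8 CPM in head kidney (n = 8). The slc3 heavy chains averaged 427 ± 214 CPM, 125 ± 46.8 CPM and 30.4 ± 3.34 CPM in the same tissues. For slc38 the liver averaged 436 ± 168 CPM, above 165 ± 15.7 CPM in head kidney and 124 ± 5.99 CPM in intestine, with no overlap between liver and the others. With plain library totals the order of liver and head kidney turned for slc38 (248 ± 116 and 257 ± 28.4 CPM). The slc7 sums overlapped, at 186 ± 68.7 CPM in liver, 155 ± 32.8 CPM in head kidney and 120 ± 34.4 CPM in intestine. For slc1 the means were 101 ± 51 CPM in liver, 56.5 ± 7.6 CPM in head kidney and 21.3 ± 9.26 CPM in intestine. Plain totals put head kidney above liver for slc1 (88.1 ± 9.92 and 55.4 ± 25.4 CPM) and for slc7 (240 ± 39.7 and 104 ± 41.5 CPM), and kept intestine highest for slc6 and slc3. The slc43 sums were 41.6 ± 4.25 CPM in head kidney, 27.2 ± 9.18 CPM in liver and 9.79 ± 3.1 CPM in intestine. All these sums leave out genes that the count files list by number. Among them, slc43a2b averaged 530 CPM in intestine, 10.1 CPM in head kidney and 2.97 CPM in liver. In liver slc1a3a averaged 327 CPM and slc38a3b 326 CPM, against 7.43 and 5.01 CPM in head kidney. The orders given, and their turns with plain totals, thus hold for the members summed and not for whole families.

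**Figure D1:**
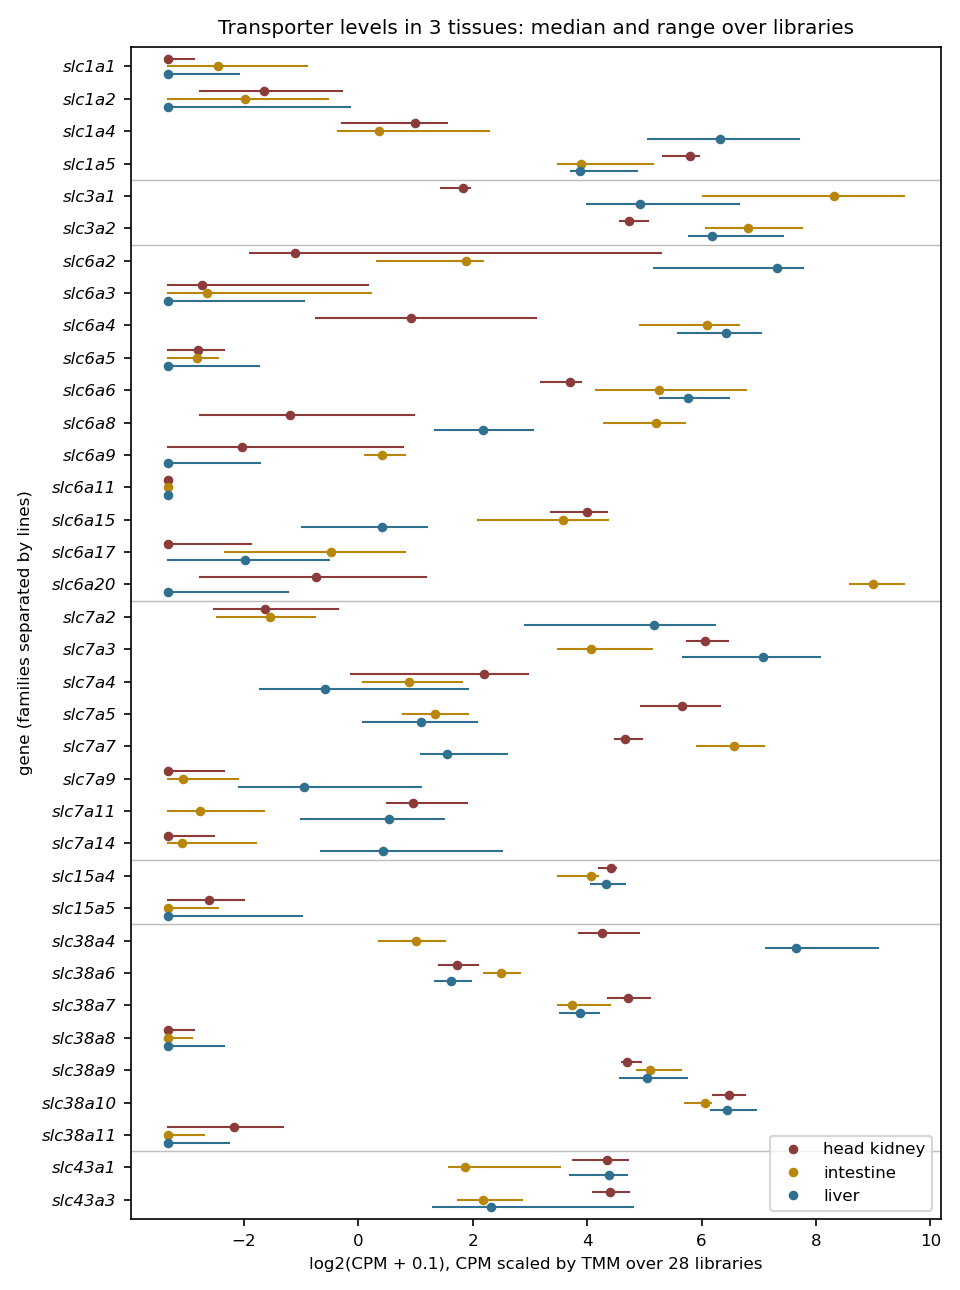
Level of 36 of the genes in head kidney (8 libraries), intestine (10) and liver (10), as log2(CPM + 0.1). Points are medians and lines run from the lowest to the highest library. slc6a20 is high in intestine alone, slc38a4 stands farthest right for liver, and slc38a10 and slc15a4 have close medians in the 3 tissues.

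To compare the 37 genes with each other, CPM was divided by the genomic span in kilobases, which includes introns and so understates genes with long introns. On that scale slc7a3, a carrier of arginine and lysine, led its family in head kidney (4.46 CPM per kb) and liver (9.1 CPM per kb), and slc7a7 led in intestine (9.61 CPM per kb). The leading heavy chain was slc3a1 in intestine (35.4 CPM per kb) and slc3a2 in liver (15.8 CPM per kb) and head kidney (5.09 CPM per kb). Among slc1 genes, slc1a5, a glutamine exchanger, led in head kidney (5.51 CPM per kb) and intestine (1.94 CPM per kb), and slc1a4, a carrier of alanine, serine and cysteine, in liver (4.53 CPM per kb). The gene that the count files name slc6a6, a taurine carrier in mammals, led slc6 in head kidney (1.12 CPM per kb) and liver (5.43 CPM per kb), and slc6a20 in intestine (18.1 CPM per kb). The slc38 family was led by slc38a10 in head kidney (4.2 CPM per kb) and intestine (3.09 CPM per kb) and by slc38a4 in liver (7.39 CPM per kb). Of the 2 slc15 genes among the 37, slc15a4, a lysosomal carrier of histidine and peptides, led in every tissue. It had 0.576, 0.421 and 0.563 CPM per kb in head kidney, intestine and liver. In slc43 the leader was slc43a3 in head kidney (1.35 CPM per kb) and intestine (0.3 CPM per kb) and slc43a1, a carrier of branched-chain amino acids, in liver (0.796 CPM per kb). All these leaders are among the 37 genes only. Genes of the families that the count files list by number were not ranked. Among them, slc15a1b and slc43a2b averaged 1950 and 530 CPM in intestine. In liver slc1a3a, slc38a3b and slc6a13 averaged 327, 326 and 144 CPM.

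Most transporter genes differed between tissues, about as often as other genes. Each pair of tissues was tested over both diets with edgeR's quasi-likelihood test on the 28 libraries, and a gene was called at a Benjamini-Hochberg adjusted p under 0.05. Of 31 transporter genes tested, 11 were higher and 12 lower in liver than in intestine, or 74.2%, beside 78.8% of all genes (35.4% higher and 43.4% lower). Between liver and head kidney 14 were higher and 11 lower in liver, or 80.6%, beside 75% of all genes (37.5% in each direction). Between intestine and head kidney 11 were higher and 12 lower in intestine, or 74.2%, beside 73.6% of all genes (38.5% higher and 35% lower). Called differences of at least 3 on the log2 scale numbered 12 (38.7%, all genes 19.8%), 14 (45.2%, all genes 21.4%) and 9 (29%, all genes 17.9%) in the same order. With plain library totals in place of TMM, the median of all genes moved from -0.18 to -1.38 for liver against intestine, from -0.03 to -1.5 for liver against head kidney and from 0.04 to -0.24 for intestine against head kidney. The transporter calls then split into 9 higher and 22 lower, 10 higher and 19 lower, and 10 higher and 13 lower, so small differences with liver depend on the scaling.

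In intestine 8 transporter genes were above both other tissues (all genes 23.4%), and slc6a20 was by at least 3 on the log2 scale in both (all genes 7.58%). slc6a20, which carries proline and other imino acids in mammals, lies on chromosome 17 from 4308409 to 4337284 on the minus strand of fSpaAur1.1. Control intestines held 508, 387, 626, 395 and 513 CPM, and SDY intestines held 405, 743, 588, 616 and 436 CPM. Every one was far above the head kidney libraries, at most 2.18 CPM, and the livers, at most 0.326 CPM. The log2 difference was 9.84 for intestine over head kidney (SE 0.52, edgeR adjusted p = 7.2e-15) and -12.56 for liver against intestine (SE 0.51, adjusted p = 3.85e-17). Liver held 7 counts of slc6a20 in 10 libraries, and the ratio of intestine to liver was 6550 (95% interval 3180 to 16300, counting error only).

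The heavy chain slc3a1 averaged 310 ± 188 CPM in intestine (n = 10), 41.3 ± 26.4 CPM in liver (n = 10) and 3.39 ± 0.366 CPM in head kidney (n = 8). It was higher in intestine than in head kidney by 6.5 on the log2 scale (SE 0.53, edgeR adjusted p = 3.95e-11), and liver against intestine was -2.88 (SE 0.37, adjusted p = 1.1e-07). Its known light chain slc7a9 had 0.0346 ± 0.0443 CPM in intestine, or 9 counts in 10 libraries. slc7a7, the basolateral exchanger of cationic for neutral amino acids, averaged 95.1 ± 29.5 CPM in intestine, and its heavy chain slc3a2 averaged 117 ± 46.5 CPM. Intestine exceeded head kidney by 1.85 for slc7a7 (SE 0.22, adjusted p = 2.96e-08), and liver against intestine was -4.82 (SE 0.23, adjusted p = 6.32e-16). The gene that the count files name slc6a8, a creatine carrier in mammals, was 6.3 higher in intestine than in head kidney (SE 0.46, adjusted p = 5.74e-12), and -2.91 for liver against intestine (SE 0.32, adjusted p = 9.51e-09). The other genes above both tissues were slc6a9, a glycine carrier (1.26 ± 0.197 CPM), slc6a17, a vesicular carrier of neutral amino acids (0.654 ± 0.452 CPM), and slc38a6 (5.62 ± 0.942 CPM). With each tissue fitted alone, slc6a9 and slc6a17 passed the low-count filter in intestine only.

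Intestine libraries also differed among themselves in several genes at once. slc3a1 held 413, 259, 329, 65.1 and 342 CPM in controls 1 to 5 and 188, 739, 310, 105 and 351 CPM in SDY libraries 1 to 5. slc6a6 held 25.5, 34, 42.3, 106 and 17.8 CPM in controls and 70.5, 24.5, 34.5, 109 and 76.2 CPM in SDY libraries. Replicate 4 of each diet was lowest for slc3a1 and highest for slc6a6. The same pair was highest for slc43a1, at 11.4 and 9.22 CPM against 2.9 to 4.84 CPM in the other 8. Brush border markers, 7 genes, summed to 1710 CPM in control replicate 4, the lowest of 10, and to 2920 CPM in SDY replicate 4. Their part in these values was not tested.

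**Figure D2:**
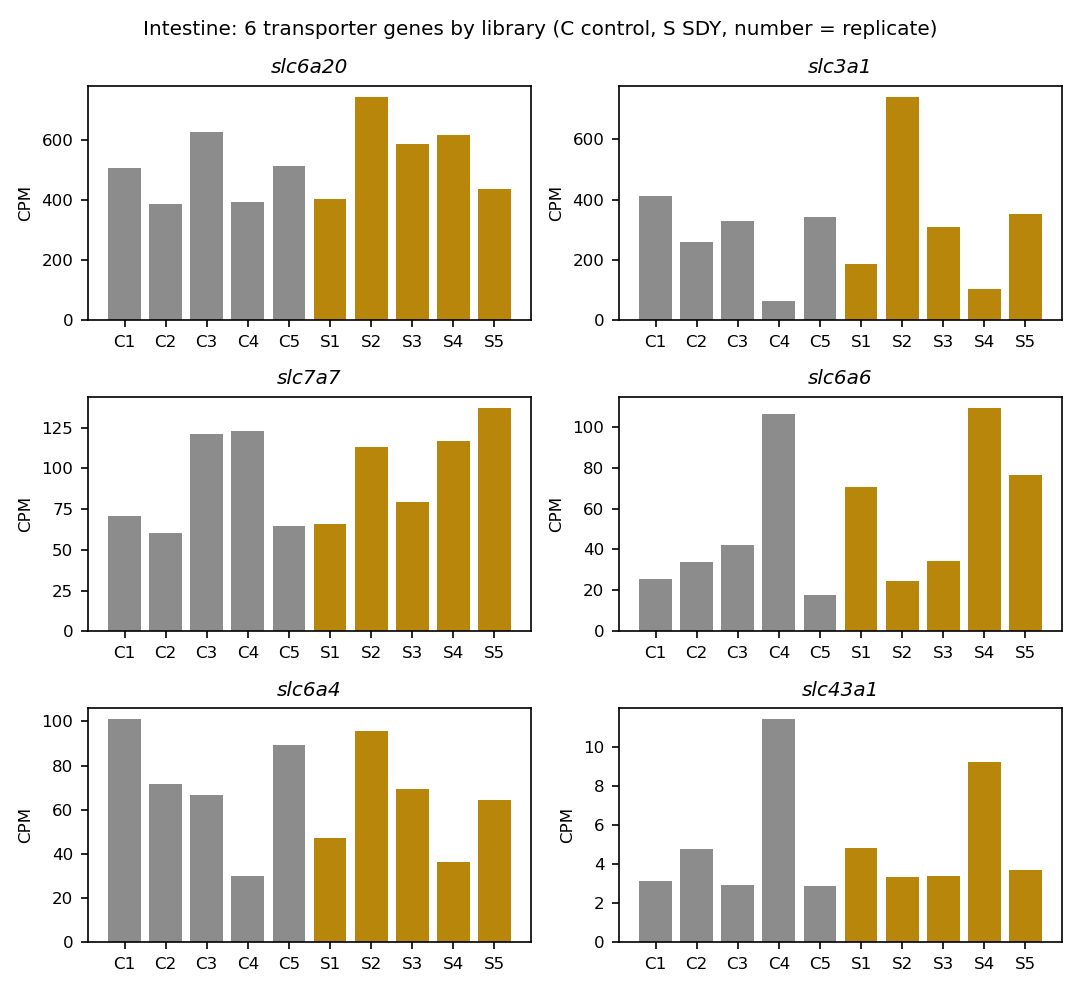
CPM of 6 transporter genes in each intestine library, controls (C) in grey and SDY libraries (S) in colour; the genes were chosen after their values were seen. C4 and S4 hold the lowest slc3a1 (65.1 and 105 CPM) and slc6a4 (30.2 and 36.4 CPM) and the highest slc6a6 (106 and 109 CPM) and slc43a1, while slc6a20 does not set them apart.

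In liver 7 transporter genes were above both other tissues (all genes 25%), 6 of them by at least 3 on the log2 scale in both comparisons (all genes 5.04%): slc38a4, slc7a2, slc1a4, slc6a2, slc7a14 and slc7a9. With each tissue fitted alone, slc7a2 and slc7a14 passed the low-count filter in liver only, and slc7a9 in no tissue. Their excess in liver is thus partly built into which genes could be tested, and the count of 6 is a description only. slc38a4, a sodium-coupled carrier of neutral amino acids that is a liver gene in mammals, lies on chromosome 14 from 6820333 to 6860034 on the plus strand. Control livers held 188, 540, 533, 161 and 214 CPM, and SDY livers held 346, 139, 184, 168 and 464 CPM. The diets overlapped widely, and every liver was above the head kidney libraries, 14.4 to 29.8 CPM, and the intestines, 1.19 to 2.76 CPM. The log2 difference was 3.84 over head kidney (SE 0.31, edgeR adjusted p = 3.07e-11) and 7.27 over intestine (SE 0.32, adjusted p = 1.59e-16).

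slc7a2, a second carrier of cationic amino acids, averaged 36.3 ± 21.2 CPM in liver and reached at most 0.685 CPM in any other library. It exceeded head kidney by 7.04 on the log2 scale (SE 0.53, edgeR adjusted p = 6.43e-12) and intestine by 7.24 (SE 0.45, adjusted p = 1.78e-13). slc1a4 averaged 84.4 ± 49.4 CPM in liver, 5.57 over head kidney (SE 0.44, adjusted p = 1.63e-11) and 5.6 over intestine (SE 0.37, adjusted p = 5.74e-13). slc6a2, the noradrenaline carrier of mammals, averaged 146 ± 64.1 CPM in liver, 6.64 over head kidney (SE 0.89, adjusted p = 2.5e-07) and 5.64 over intestine (SE 0.67, adjusted p = 3.49e-08). The difference from head kidney was 9.49 in control fish and 3.79 in SDY fish, where SDY replicates 3 and 4 were high, and the ratio of the summed counts over the scaled library totals was 18.8 (17.8 to 19.8, counting error only). The remaining pair was low, with 2.23 ± 1.76 CPM for slc7a14 and 0.762 ± 0.698 CPM for slc7a9. Pancreatic cpb1 was at most 8.57 CPM in head kidney and 815 CPM in intestine and at least 6300 CPM in liver, and its part in the liver levels was not tested. The remaining gene above both tissues, slc7a3, exceeded head kidney by 0.90 over both diets with TMM (SE 0.23, adjusted p = 0.00102). The difference was 0.19 in control fish and 1.62 in SDY fish. With plain library totals the difference over both diets was -0.62 (adjusted p = 0.0207).

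In head kidney 6 transporter genes were above both other tissues (all genes 22.3%), with slc7a5 among those at least 3 higher on the log2 scale in both (all genes 2.54%). slc7a5 is the light chain that exchanges large neutral amino acids and is abundant in dividing cells in mammals, and it lies on chromosome 8 from 29932872 to 29953019 on the plus strand. It averaged 54.2 ± 19.4 CPM in head kidney, 2.51 ± 0.734 CPM in intestine and 2.05 ± 0.885 CPM in liver. No intestine or liver library reached the lowest head kidney library, 30.7 CPM. The log2 difference was -4.5 for intestine against head kidney (SE 0.21, edgeR adjusted p = 7.25e-16) and -4.74 for liver against head kidney (SE 0.22, adjusted p = 3.53e-16). slc1a5 averaged 54.5 ± 7.19 CPM, with log2 differences of -1.54 for intestine (SE 0.2, adjusted p = 1.9e-07) and -1.73 for liver (SE 0.2, adjusted p = 2.5e-08) against head kidney. Also above both were slc43a3 (21.6 ± 3.15 CPM), slc38a7, a lysosomal exporter of glutamine and asparagine (26.2 ± 5.16 CPM), and slc7a4, a relative of the cationic carriers with no settled substrate (4.32 ± 2.5 CPM).

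Some slc38 and slc15 members were nearer to even across tissues. slc38a10 averaged 88.3 ± 11.6 CPM in head kidney, 64.9 ± 6.34 CPM in intestine and 91 ± 16.2 CPM in liver. slc38a9, a lysosomal arginine sensor of the TORC1 growth pathway, averaged 26.5 ± 2.1, 37.6 ± 7.93 and 34.1 ± 8.63 CPM in that order, and slc15a4 averaged 20.9 ± 1.68, 15.3 ± 2.73 and 20.5 ± 2.51 CPM. Their largest log2 difference between tissues was 0.52 in size. Even so, edgeR called slc38a10 and slc15a4 lower in intestine than in both other tissues (all genes 15.5%). It called slc38a9 lower in head kidney than in both others (all genes 21.4%). Both the evenness and these calls depend on the scaling. With plain library totals, liver against head kidney went from 0.39 to -1.11 for slc38a9, from 0.08 to -1.4 for slc38a10 and from 0 to -1.5 for slc15a4. Other members were low in a single tissue. slc6a4 averaged 67.2 ± 24 CPM in intestine, 83.2 ± 27.4 CPM in liver and 2.53 ± 2.54 CPM in head kidney. With TMM, liver and intestine did not differ beyond their spread (log2 difference 0.33, SE 0.27, edgeR adjusted p = 0.27). With plain library totals, liver against intestine was -0.83 for slc6a4 (edgeR adjusted p = 0.00573). slc6a15, a carrier of neutral amino acids, averaged 15.3 ± 3.2 CPM in head kidney, 11.7 ± 5.19 CPM in intestine and 1.28 ± 0.56 CPM in liver. slc7a11, the cystine and glutamate exchanger, averaged 2.21 ± 0.918 CPM in head kidney, 1.41 ± 0.697 CPM in liver and 0.0799 ± 0.0768 CPM in intestine. slc43a1 averaged 20 ± 4.56 CPM in head kidney, 20.5 ± 4.27 CPM in liver and 4.97 ± 2.95 CPM in intestine. Its liver against head kidney difference went from 0.04 to -1.47 with plain library totals. The genes slc1a1, slc6a5, slc6a11, slc15a5, slc38a8 and slc38a11 passed the low-count filter in no fit and reached at most 0.439 CPM, and slc6a11 had 0 counts in the 28 libraries.

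By edgeR, no transporter gene passed the threshold between diets in any tissue, while DESeq2 called slc38a4 and slc6a2 in head kidney and slc7a3 in liver. In liver the arginine and lysine carrier slc7a3 had the smallest p and was higher in SDY fish in 4 of 5 libraries than in any control, and in head kidney slc38a4 was lower in every SDY library. edgeR's quasi-likelihood test called 0 of 26 transporter genes in head kidney (lowest adjusted p = 0.404), 0 of 24 in intestine (lowest 0.732) and 0 of 23 in liver (lowest 0.343), where it called 0.00583%, 0% and 0% of all genes. DESeq2 called 2 in head kidney, 0 in intestine and 1 in liver, where it called 1.39%, 0.258% and 0.603% of all genes. At an unadjusted p under 0.05, head kidney had 3 higher and 2 lower under SDY, against 5.86% and 5.92% of all genes (11.8% together). Intestine had 0 higher and 2 lower, against 1.62% and 4.88% (6.5% together), and liver had 4 higher and 1 lower, against 5.68% and 5.07% (10.7% together). The median log2 difference of the transporter genes was 0.01 in head kidney, 0.02 in intestine and 0.15 in liver, beside 0.02, -0.01 and 0 for all genes. Of the transporter genes tested, 14 of 26 lay above 0 in head kidney, 14 of 24 in intestine and 13 of 23 in liver. By family, 5 of 6 tested slc7 genes lay above 0 in liver and 4 of 5 below 0 in head kidney. For slc38, 4 of 5 lay below 0 in liver and 4 of 5 above 0 in intestine, where the 5 ran only from -0.03 to 0.16. In head kidney 6 of 8 slc6 genes lay above 0. Families with fewer tested genes or a more even split are not listed, so these counts carry no test of direction. With plain library totals slc7a3 changed sign in head kidney, and slc38a6 and slc38a9 in intestine, so some of these counts depend on the scaling.

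**Figure D3:**
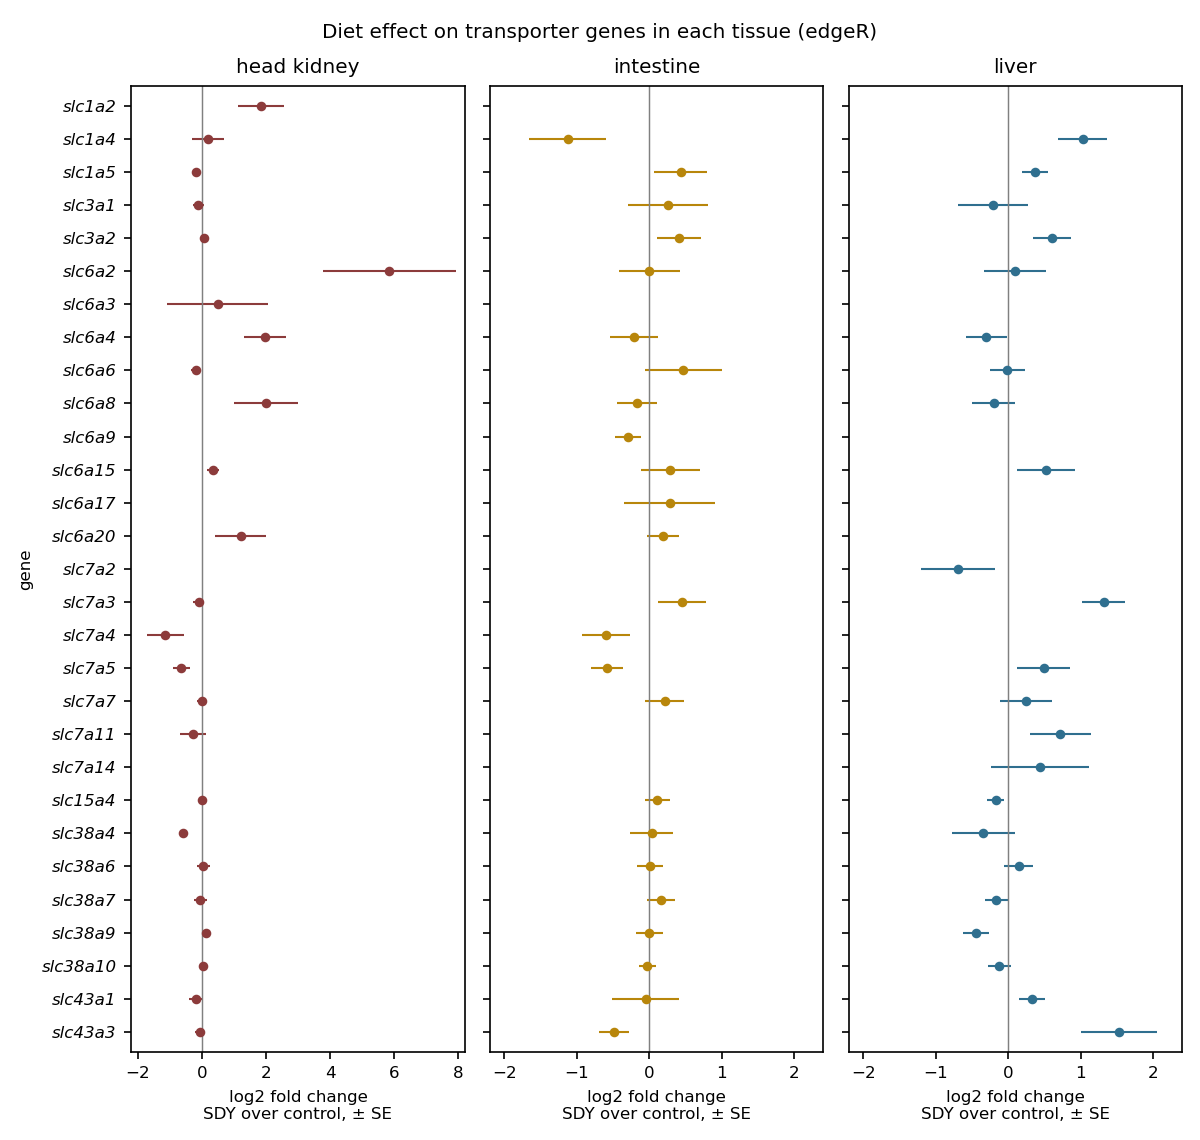
Log2 difference of SDY minus control with its standard error for the transporter genes tested by edgeR, in head kidney, intestine and liver. The head kidney axis is wider, set by slc6a2 at 5.85. No gene passed the adjusted threshold, and in liver slc43a3 (1.53) and slc7a3 (1.32) lie farthest to the right.

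slc7a3 lies on chromosome 13 from 2562422 to 2577651 on the plus strand. Control livers held 51, 79.4, 65.1, 141 and 57.7 CPM, and SDY livers held 128, 187, 158, 268 and 251 CPM. Only SDY replicate 1 lay below the highest control, replicate 4. From 78.8 ± 36.3 CPM in controls to 198 ± 59.9 CPM under SDY, the log2 difference was 1.32 (SE 0.30, edgeR adjusted p = 0.343). DESeq2 gave 1.33 (SE 0.31, adjusted p = 0.009), so the call depends on the tool.

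slc1a4 held 34.3, 84.1, 33.2, 72.5 and 53.4 CPM in control livers and 207, 76.9, 90.9, 110 and 82.1 CPM in SDY livers. SDY replicate 1 stood far above the rest, and 3 of 5 SDY livers exceeded every control. The log2 difference was 1.03 (SE 0.34, edgeR adjusted p = 0.376), or 0.70 (SE 0.28) without SDY replicate 1. The heavy chain slc3a2 held 57.1, 89.1, 58.4, 59.2 and 66.4 CPM in control livers and 78.7, 81.9, 55, 171 and 123 CPM in SDY livers. SDY replicates 4 and 5 were above every control and the rest overlapped. Its log2 difference was 0.61 (SE 0.26, adjusted p = 0.439), or 0.37 (SE 0.22) without SDY replicate 4.

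slc43a3 held 2.36, 5.71, 3.25, 2.55 and 3.28 CPM in control livers and 5.89, 27.8, 6.04, 4.21 and 5.71 CPM in SDY livers. SDY replicate 2 was far above all others, and the log2 difference of 1.53 (SE 0.53, edgeR adjusted p = 0.386) became 0.66 (SE 0.28) without it. Macrophage and neutrophil markers, 7 genes, were also highest in replicate 2 of each diet, at 89.7 and 101 CPM against 44.6 to 68.8 CPM in the other 8, and their part in this value was not tested. slc1a5 held 13.5, 13.9, 16.6, 14.1 and 13.1 CPM in control livers and 16.3, 15.2, 14.1, 29.3 and 17.5 CPM in SDY livers. It rested in the same way on SDY replicate 4, with 0.37 (SE 0.18) against 0.16 (SE 0.12) without that library. slc38a9 held 34.9, 30.5, 53.6, 40.7 and 36.2 CPM in control livers and 31.2, 23.8, 33.6, 32.7 and 23.6 CPM in SDY livers. Its groups overlapped, and the log2 difference was -0.44 (SE 0.18, adjusted p = 0.421). The other slc7 genes of liver had log2 differences of -0.69 (SE 0.51) for slc7a2, 0.72 (SE 0.42) for slc7a11, 0.49 (SE 0.36) for slc7a5, 0.44 (SE 0.67) for slc7a14 and 0.25 (SE 0.36) for slc7a7. slc38a4 had -0.34 (SE 0.44) and slc43a1 had 0.33 (SE 0.18). cpb1 ran from 6300 to 29000 CPM in control livers and from 9000 to 35000 CPM in SDY livers, and its part in these values was not tested.

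**Figure D4:**
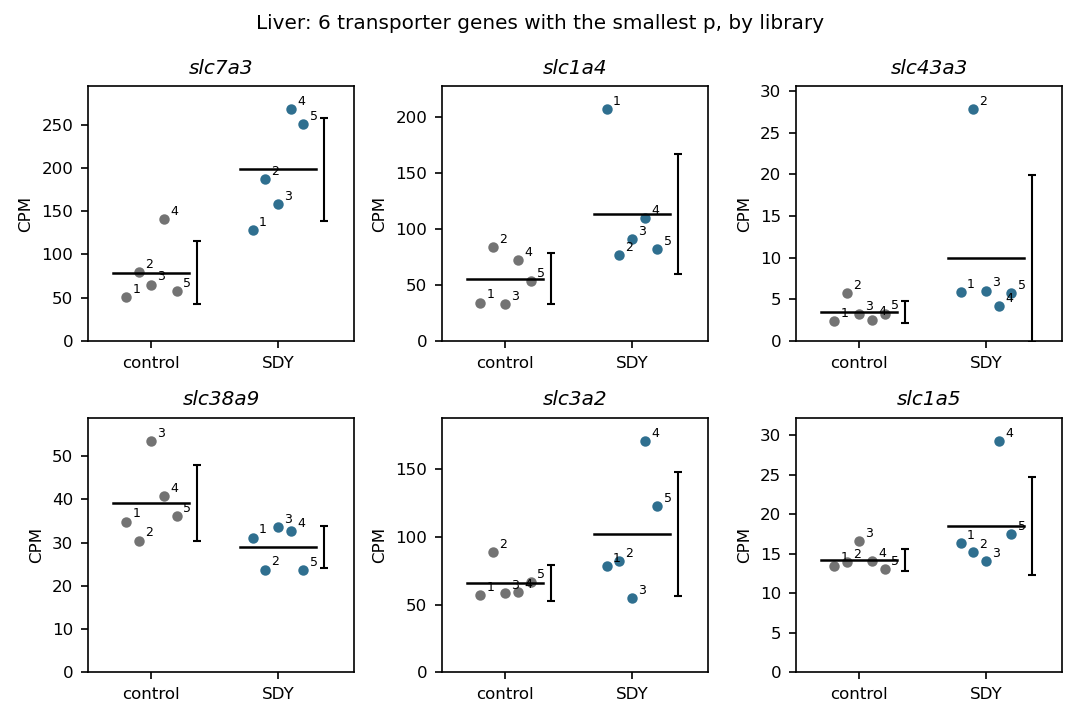
CPM of the 6 transporter genes with the smallest p in liver, in 5 control (grey) and 5 SDY (coloured) libraries, numbered by replicate; lines are means and bars are SD. For slc7a3, 4 of 5 SDY libraries lie above every control, and single SDY libraries stand apart for slc1a4 (207 CPM), slc43a3 (27.8 CPM) and slc1a5 (29.3 CPM).

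In head kidney slc38a4 had the smallest p. Controls 2, 4 and 5 held 29.8, 25 and 21.9 CPM, and SDY libraries 1 to 5 held 20, 15.9, 18.2, 14.4 and 16.9 CPM. All SDY libraries lay below all controls, as they did for slc7a4, and for 3.54% of all genes. The log2 difference of slc38a4 was -0.58 (SE 0.13, edgeR adjusted p = 0.404), and DESeq2 called it at -0.59 (SE 0.16, adjusted p = 0.027). slc7a4 held 7.75, 7.17 and 4.72 CPM in controls and 4.28, 0.94, 4.71, 0.816 and 4.18 CPM in SDY libraries. The groups met at 4.72 and 4.71 CPM, and its log2 difference was -1.14 (SE 0.58, adjusted p = 0.464). slc7a5 held 76.9, 52.1 and 80.3 CPM in controls and 49.2, 30.9, 44.6, 30.7 and 68.9 CPM in SDY libraries. Only SDY replicate 5 reached the control range (log2 difference -0.64, SE 0.26, adjusted p = 0.409). Erythroid markers, 5 genes of red blood cells, summed to 1130 to 1680 CPM in these controls and 476 to 1470 CPM in the SDY libraries, and their part in these values was not tested.

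The noradrenaline carrier gene slc6a2 held 0.187, 0.169 and 0.227 CPM in head kidney controls and 1.13, 0.564, 38.9, 14.9 and 0.184 CPM in SDY libraries. SDY replicates 3 and 4 stood far above the rest, and they also held 1570 and 669 CPM over 9 interrenal and chromaffin markers, against 13.5 to 30.6 CPM in the other 6. The marker star alone held 1020 and 392 CPM of these sums. All of the markers but chga, chgb and ddc were highest in this pair. SDY replicates 1 and 2 came next for th, at 1.84 and 1.09 CPM, against 10.9 and 5.97 CPM in the pair and at most 0.0843 CPM in the rest. The interrenal tissue makes steroid hormones and the chromaffin cells make catecholamines, and both lie within the head kidney of fish. The part of these cells in the values was not tested. The log2 difference of slc6a2 was 5.85 (SE 2.07, edgeR adjusted p = 0.404), DESeq2 called it at 5.87 (SE 1.54, adjusted p = 0.0228), and without SDY replicates 3 and 4 it fell below the low-count filter. slc6a8 was also highest in that pair, at 1.86 and 1.63 CPM, while no other head kidney library passed 0.422 CPM. slc6a4 held 0.981, 1.22 and 0.499 CPM in controls and 2.4, 1.35, 8.49, 2.41 and 2.86 CPM in SDY libraries. All SDY libraries lay above all controls, as for 3.59% of all genes. Its log2 difference was 1.97 (SE 0.65, adjusted p = 0.404), 1.26 (SE 0.43) without SDY replicates 3 and 4, and -1.39 (SE 1.08) with the 2 omitted controls put back. slc1a2, a glutamate carrier of glia in mammals, stayed at or under 0.718 CPM (1.84, SE 0.72, adjusted p = 0.404).

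**Figure D5:**
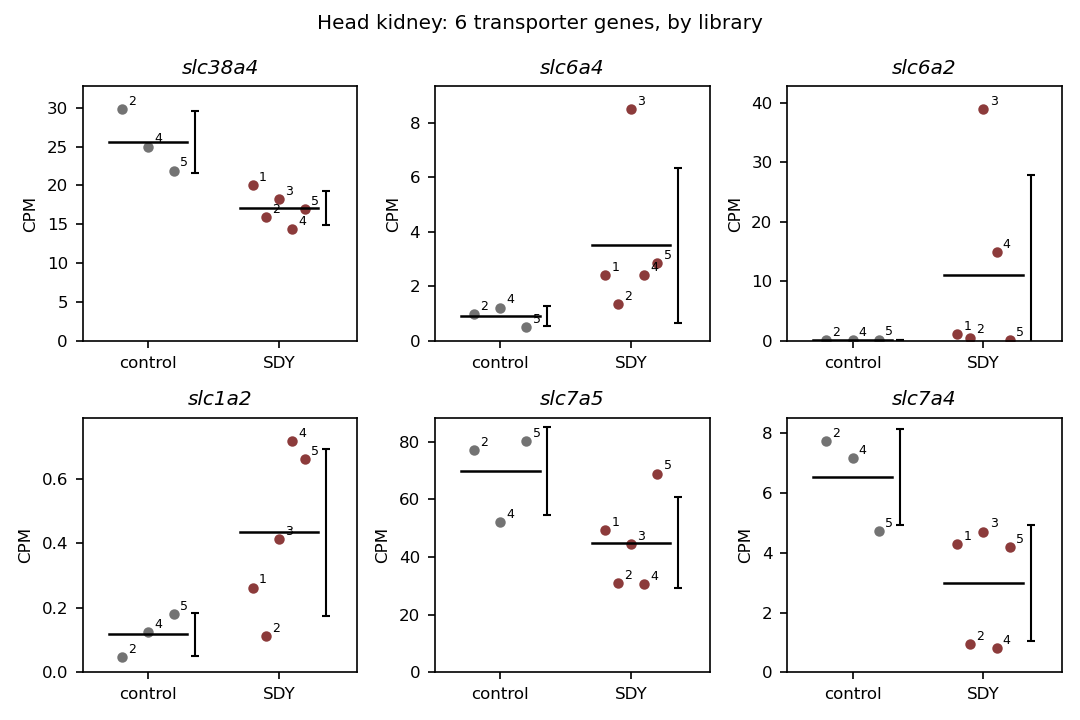
CPM in head kidney of slc38a4, slc6a4, slc6a2, slc1a2, slc7a5 and slc7a4, in 3 control (grey) and 5 SDY (coloured) libraries, numbered by replicate; lines are means and bars are SD. For slc38a4 the diets do not overlap, and for slc6a2 SDY replicates 3 and 4 hold 38.9 and 14.9 CPM against at most 1.13 CPM in the others.

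In intestine the diets overlapped for every transporter gene tested, as in liver; without overlap were 0.187% of all genes higher and 0.653% lower in intestine, and 0.546% and 0.813% in liver. slc7a5 held 2.73, 3.47, 2.16, 3.66 and 3.07 CPM in control intestines and 2.81, 1.98, 1.63, 1.85 and 1.78 CPM in SDY intestines. SDY replicate 1 lay among the controls and the other 4 lay below them (log2 difference -0.59, SE 0.22, edgeR adjusted p = 0.732). slc43a3 held 6.7, 7.19, 4.07, 4.26 and 5.88 CPM in control intestines and 3.95, 3.24, 4.56, 4.73 and 3.59 CPM in SDY intestines (-0.49, SE 0.21, adjusted p = 0.756). slc1a4 was high in control replicates 2 and 4, at 4.28 and 4.76 CPM against 0.679 to 1.67 CPM in the other 8. Its log2 difference was -1.13 (SE 0.53), or -0.74 (SE 0.5) without control replicate 4. slc7a3 was 0.45 (SE 0.33), or 0.78 (SE 0.27) without control replicate 4 and 0.27 (SE 0.33) without SDY replicate 5. slc7a4 and slc6a9 had -0.6 (SE 0.33) and -0.29 (SE 0.18). The abundant carriers did not pass the test, with log2 differences of 0.19 (SE 0.22) for slc6a20, 0.26 (SE 0.55) for slc3a1, 0.41 (SE 0.3) for slc3a2 and 0.21 (SE 0.27) for slc7a7.

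Whether the diet effect differed between tissues was tested in the fit of 28 libraries. edgeR called 0 transporter genes for liver minus intestine, liver minus head kidney and intestine minus head kidney, where it called 0.00985%, 0.00985% and 0.00493% of all genes. The unadjusted p was under 0.05 for 4, 9 and 5 of 31 genes in that order, against 5.82%, 6.24% and 7.05% of all genes. The 5 were slc6a2, slc6a4, slc6a8, slc6a9 and slc7a9, and the 9 held all of them but slc6a9. Head kidney SDY replicates 3 and 4 were highest for slc6a2 and slc6a8, and replicate 3 for slc6a4. In head kidney slc7a9 had 0 counts in controls and 5 under SDY. There slc6a9 reached 1.63 CPM in control replicate 2 but no more than 0.228 CPM in any other library used. The 9 also held slc7a3, slc7a4, slc7a5, slc38a9 and slc43a3. An excess over all genes was not tested. DESeq2 called 0, 1 and 1, the gene being slc6a2, where it called 0.1%, 0.22% and 0.245% of all genes. For slc7a3 the diet effect of liver minus head kidney was 1.43 (SE 0.44, edgeR adjusted p = 0.53) and of liver minus intestine 0.87 (SE 0.42, adjusted p = 0.854), or 0.56 (SE 0.38) without intestine control replicate 4. slc1a4 had 2.16 for liver minus intestine (SE 0.65, adjusted p = 0.596) and slc43a3 had 2.02 (SE 0.53, adjusted p = 0.477), or 1.14 (SE 0.31) without liver SDY replicate 2.

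The RefSeq gene table of the same assembly names 30 further genes of these families that the count files list by number only. Among the 37, that table gives slc6a6 no symbol and slc6a8 another name, so the substrates of this pair rest on the count files' symbols. The 30 further genes are no part of the 37, and were added after the files were seen. They hold the gut peptide carriers: slc15a1b, which takes up small peptides with protons, held 2960, 1460, 2950, 488 and 2590 CPM in control intestines and 1210, 2900, 1870, 1370 and 1740 CPM in SDY intestines. Control replicate 4, low for slc3a1 and for brush border markers, was the lowest. slc15a1b averaged 1950 ± 859 CPM in intestine, 8.71 over head kidney on the log2 scale (SE 0.87, edgeR adjusted p = 2.01e-09), and -10.32 for liver against intestine (SE 0.76, adjusted p = 4.77e-12). Its copy slc15a1a averaged 504 ± 283 CPM in intestine, and slc43a2b, of the same family as slc43a1, averaged 530 ± 204 CPM. slc36a1, a proton-coupled carrier of small amino acids, belongs to the family that has no symbol in the count files. It averaged 108 ± 22 CPM in intestine, 33.1 ± 3.42 CPM in liver and 25.5 ± 2.45 CPM in head kidney. Between diets edgeR called 0 of the 15 tested in head kidney, 0 of 19 in intestine and 0 of 13 in liver. At an unadjusted p under 0.05 there were 1 higher in head kidney (all genes 5.86%), 3 lower in intestine (all genes 4.88%) and 0 in liver, and DESeq2 called 0 in each tissue. The 3 in intestine were the peptide carrier slc15a2 (-1.3, SE 0.52, edgeR adjusted p = 0.749), slc38a3b (-1.2, SE 0.48, adjusted p = 0.746) and slc7a14a (-0.67, SE 0.29, adjusted p = 0.761), and the gene in head kidney was slc6a7 (0.8, SE 0.25, adjusted p = 0.404). The diet difference was -0.21 (SE 0.45) for slc15a1b in intestine and 0.52 (SE 0.25, adjusted p = 0.478) in liver for slc38a2, a glutamine carrier.

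Genes that act beside the transporters were described from 5 lists. The lists were chosen with earlier results of these data known, so counts over a list describe it and do not test it. Of the listed genes, edgeR called 0 between diets in any tissue. DESeq2 called 5 genes of the GCN2 and ATF4 list higher in liver (atf3, mars1, phgdh, psat1 and wars1), arrdc2 lower in liver, eif4ebp2 lower in head kidney, and 0 others. Of all genes it called 0.386% higher and 0.217% lower in liver, and 0.746% lower in head kidney. The list with most genes at an unadjusted p under 0.05 was the GCN2 and ATF4 pathway in liver, which answers to amino acid shortage. Of its 24 tested genes 16 were higher at that level and 0 lower, against 5.68% and 5.07% of all genes, and the median log2 difference was 0.65 beside 0 for all genes. atf3, a stress-induced transcription factor, had 7.84 ± 2.78 CPM in control livers and 71.7 ± 33.9 CPM in SDY livers (3.18, SE 0.41, edgeR adjusted p = 0.109). phgdh, an enzyme of serine synthesis, had 8.45 ± 3.8 and 44.1 ± 17.9 CPM (2.37, SE 0.34, adjusted p = 0.147). mars1, which loads methionine on its tRNA, had 118 ± 13 and 190 ± 38.3 CPM (0.68, SE 0.16, adjusted p = 0.343). In head kidney 1 of the 24 was higher and in intestine 1 was lower at that level, with medians of 0.06 and 0.12. The list for amino acid sensing and TORC1, which also holds slc38a9, had 2 higher and 4 lower of 29 in liver, 1 and 3 in head kidney, and 1 and 0 in intestine. Of all genes, 10.7%, 11.8% and 6.5% were at that level in either direction in liver, head kidney and intestine. Regulators of transporter trafficking had 1 higher and 2 lower of 12 in liver, 0 and 1 in head kidney, and none in intestine. Brush border peptidases had 1 higher of 7 in liver, 1 higher of 5 in head kidney and 0 of 11 in intestine, with a median of -0.2 there. The other amino acid carriers had 1 lower of 6 in liver, 1 lower of 6 in head kidney and 0 of 6 in intestine.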

How the data were processed

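Per the file headers, the authors counted reads per gene with featureCounts 1.5.3 on the fSpaAur1.1 annotation, over the whole span of each mRNA, with reads on overlapping genes given to each, and with no strand or paired-end option. The deposited values are raw counts. The submitters' processing notes also name Trim Galore 0.4.4, FastQC, HISAT2 2.1.0 and DESeq2. Per the labels, total RNA was extracted with TRIzol and libraries were made with a poly(A) selection module and a directional kit.

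Here edgeR 4.0.16 (R 4.3.3) was run per tissue for diet, and on 28 libraries with 6 group means for tissue contrasts and for differences in the diet effect, using filterByExpr, TMM, the quasi-likelihood test and Benjamini-Hochberg adjustment over all genes tested (threshold 0.05). Standard errors came from the F statistic. CPM values carry TMM factors of 1.43 to 1.67 in head kidney, 1.07 to 1.46 in intestine and 0.42 to 0.636 in liver. DESeq2 1.42.0, other scalings, other filters and leaving out each library were alternatives. Data were simulated with the means and totals of these libraries but with 1 fixed spread for all genes, and only genes with ample counts were changed. Changes of 1 on the log2 scale were then recovered for 35% of genes in liver, 38% in intestine and 28% in head kidney, and changes of 2 for 100%. As the real spread was not used, these shares do not say which real changes were missed. In the real head kidney data slc6a2 at 5.85 was not called (edgeR adjusted p = 0.404). Library totals ran from 9276705 to 20580440, and counting intervals cover counting error only. Same-group libraries were checked for duplicates in 53 pairs, and none was found.

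The members and all gene lists were chosen with earlier results of these data known. Genes named are those past the threshold between diets, the 6 with the smallest p per tissue, the highest per length in each family and tissue, those at least 3 above both other tissues on the log2 scale, carriers with a well-known role, and the 3 with the smallest p of a pathway list. Any other gene named, such as those in the bars of intestine libraries, was picked with its values in view. The values of 1 member are not reported here, though it counts in the totals.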

Additional observations from a re-analysis of the deposited data

Results flagged for a closer look

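Libraries far from the others of their group were sought for the named genes in 97 combinations of gene and group, and 15 stood apart. The rule's rate of 1 in 20 holds for independent, bell-shaped values. These were untransformed CPM in which the same libraries recur, so the 15 cannot be set against chance. In intestine control replicate 4, slc1a5 (29.7 CPM), slc6a6 (106 CPM), slc7a3 (31.2 CPM) and slc43a1 (11.4 CPM) were far above the other controls, and slc43a1 was also apart in SDY replicate 4 (9.22 CPM). Brush border markers were lowest in control replicate 4, and their part in these values was not tested.

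In liver, slc1a4 stood apart in SDY replicate 1 (207 CPM against 76.9 to 110 CPM), slc3a1 in SDY replicate 5 (101 CPM against 15.9 to 28.5 CPM) and slc43a3 in SDY replicate 2 (27.8 CPM). slc1a5 did so in SDY replicate 4 (29.3 CPM) and control replicate 3 (16.6 CPM), and control replicate 2 was apart for slc43a3 and slc7a7 (5.71 CPM each). In head kidney SDY libraries, slc6a4 stood apart in replicate 3 (8.49 CPM), slc6a20 in replicate 1 (2.18 CPM) and slc7a11 in replicate 2 (3.57 CPM).

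Head kidney control replicate 3, left out of the comparisons except where it was put back as an alternative, was above all 28 libraries for 5 transporter genes. Its CPM use the plain library total, while those of the 28 libraries are scaled by TMM. slc7a9 held 16.0 CPM there, against at most 2.03 CPM elsewhere, and slc7a11 7.11 CPM against at most 3.64 CPM. slc6a11 held 0.122 CPM, slc1a5 67.6 CPM and slc15a4 27.2 CPM, but for the last pair the excess came from the scaling. slc1a5 had 1113 of 16459444 counts in replicate 3 and 1302 of 14987186 in head kidney control replicate 2. slc15a4 had 448 counts in replicate 3 and 497 of 14509798 in control replicate 5. slc7a11 had 117 counts in replicate 3 and 95 of 15884550 in head kidney SDY replicate 2. Part of its excess thus came from the scaling too. The hepatocyte markers of control replicate 3 summed to 20100 CPM, its exocrine pancreas marker cpb1 to 1120 CPM, its renal tubule markers to 706 CPM (13.1 to 16.3 CPM in the head kidneys kept) and its brush border markers to 100 CPM. Their part in these values was not tested.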

How the results depend on the processing

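The 9 counts of called genes were recomputed under 258 alternatives, of which 254 stayed within 1.5 times. DESeq2 moved the other 4, from 0 to 2 between diets in head kidney, from 0 to 1 in liver, and from 0 to 1 for the difference of the diet effect of head kidney with liver and with intestine. The cause was not tested. Between tissues 23 to 25 of 31 tested genes were already called, so a rise could hardly pass 1.5 times. With plain library totals, liver against intestine went from 11 higher and 12 lower to 9 higher and 22 lower and still stayed within that limit. Over all genes, DESeq2 called 248, 55 and 103 between diets in head kidney, intestine and liver, where edgeR called 1, 0 and 0, and a diet fit over all 28 libraries called 1, 0 and 29. Leaving out each library gave 0 diet calls in every tissue, 21 to 23 for liver against intestine, 24 to 25 for liver against head kidney and 23 to 24 for intestine against head kidney. Of 922 single-gene alternatives, 918 kept direction and call. Between tissues these cover only genes at least 3 above both other tissues on the log2 scale. With plain library totals 6 members changed sign for liver against intestine and 5, slc7a3 included, for liver against head kidney, and these are not among the 922. DESeq2 called slc38a4 (-0.59) and slc6a2 (5.87) in head kidney and slc7a3 (1.33) in liver, and slc6a4 in head kidney turned to -1.39 with control replicates 1 and 3 kept in. slc6a2 was then 0.37, and it could not be tested without SDY replicates 3 and 4, a choice made after seeing the data. With the replicate number as a block, 0 transporter genes were called between diets in each tissue and 0 for differences of the diet effect, with 23, 25 and 23 calls for liver against intestine, liver against head kidney and intestine against head kidney. The block moved slc6a2 in head kidney to 3.50. Replicate numbers gave no clear sign of pairing. Of same-numbered pairs, 3 of 13 within a tissue (at most 0.44) and 2 of 26 between tissues of a diet (at most 0.19) correlated above 0.1. Best with their own number correlated 8 of 26 libraries. These correlations cannot settle whether same-numbered samples share a fish. Head kidney had 3 controls, and the shallowest library, a liver, held 9276705 counts.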
